A study of Mus musculus with 22 samples.

Results

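The apelin and angiotensin systems were followed here through 7 genes: the peptide precursors Apln and Agt, the converting enzyme Ace, the receptors Aplnr, Agtr1a and Agtr2, and the receptor-binding protein Agtrap. The genes were taken by symbol from the GENCODE annotation of mm10, and all 7 of 7 were found among the 49670 genes of the right ventricle (RV) table and the 49671 genes of the left ventricle (LV) table. They were chosen by name with the normalized counts and fold changes of these 22 libraries already known. The banding contrasts of both ventricles therefore count as used in the choice, and their fold changes and adjusted p-values below describe the samples and do not stand as independent evidence.

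The study sequenced bulk RNA from the RV and LV of CD1 mice, an outbred stock. Banding of the pulmonary artery in the newborn (nPAB), set with a 30 G needle to narrow the outflow of the RV, or a sham operation was done on postnatal day 1, and hearts were taken 7 days later. The 4 groups were RV nPAB (6 libraries), RV Sham (5), LV nPAB (6) and LV Sham (5), with an RV and an LV library labelled for each of 11 mice and batch label 1 on all 22. The LV of a banded mouse is not itself banded, neither sex nor litter is given by the labels, and the ventricles hold all their cell types.

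Angiotensinogen, the product of Agt, is cut by renin to angiotensin I, and angiotensin-converting enzyme (ACE) removes its last residues to give angiotensin II. Angiotensin II acts mainly through the AT1 receptor, in mice encoded by Agtr1a and Agtr1b, which couples to Gq, raises calcium and promotes vasoconstriction and growth. The AT2 receptor, Agtr2, is abundant in fetal tissue and wanes after birth, and Agtrap binds the AT1 receptor and promotes its internalisation. Apelin, the product of Apln, signals through Aplnr, a Gi-coupled receptor of endothelial and other cardiac cells that is required for heart and coronary development, and in the adult it dilates vessels and raises contractility.

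The coding bases of the active peptides are shown because ACE, whose transcript was higher after banding, acts on the end of the first of them. They are the reference sequence of mm10 (GENCODE transcripts), read 5′ to 3′ on the minus strand, and capitals mark the angiotensin II codons in Agt and the apelin-13 codons in Apln. The Agt stretch covers codons 30 to 39 of 482 in exon 2, at chr8:124564450-124564479, and its lower-case end encodes the residues that ACE removes. The Apln stretch covers codons 42 to 77 of 77 in exon 2, at chrX:48028302-48028409, and encodes the longest mature apelin.
Agt: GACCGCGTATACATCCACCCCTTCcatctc
Apln: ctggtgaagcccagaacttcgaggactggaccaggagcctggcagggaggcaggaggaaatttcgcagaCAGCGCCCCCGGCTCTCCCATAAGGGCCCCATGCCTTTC

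Libraries held 7.11 to 11.3 M reads, recovered as whole numbers from the deposited values. The 9 ventricular cardiomyocyte markers summed to between 718210 and 1058600 normalized counts per library. The 6 atrial markers summed to 360 to 2917 (median 2091) in RV Sham and 1191 to 10845 (3899) in RV nPAB. In the LV they summed to 717 to 1669 (1533) in Sham and 698 to 2605 (1240) in nPAB. None was at 0 in all libraries of a group, but Bmp10 averaged 0.202 normalized counts in LV nPAB. In the RV 1 of the 6 atrial markers was called (Dkk3, higher by 1.06 ± 0.27 on the log2 scale). The uncalled RV log2 fold changes were 2.11 ± 0.81 for Myl4, 1.76 ± 1.28 for Bmp10 and 1.66 ± 1.06 for Myl7. Sln was at 1.33 ± 0.99 and Stard10 at -0.93 ± 0.40, both also uncalled. The part of atrial tissue in the RV results was not tested. Xist and Ddx3y gave a female and a male library for nPAB mouse 6 (RV female, LV male) and for nPAB mouse 7 (RV male, LV female), so neither labelled pair can come from 1 animal. For this reason results are also given without these mice. By the same genes, Sham held 2 female and 3 male libraries and nPAB 3 female and 3 male libraries in each ventricle.

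Banding was followed in the RV by lower Aplnr, Agtr1a and Agtr2 and higher Ace and Agtrap, and in the LV by lower Aplnr and Agtr1a and higher Ace. Apln and Agt did not pass the test in either ventricle. In numbers, 5 of the 7 genes were called in the RV (2 higher, 3 lower) and 3 of 7 in the LV (1 higher, 2 lower), at an adjusted p under 0.05 in limma on log2 of the normalized count plus 1. Of all genes tested, 22% were called in the RV, 11.1% higher and 10.8% lower, and 9.31% in the LV, 4.76% higher and 4.55% lower. Without nPAB mice 6 and 7, the members called numbered 5 in the RV and 2 in the LV. The RV and LV libraries are labelled as those of the same mice, so their results were not treated as independent of each other.

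**Figure D1:**
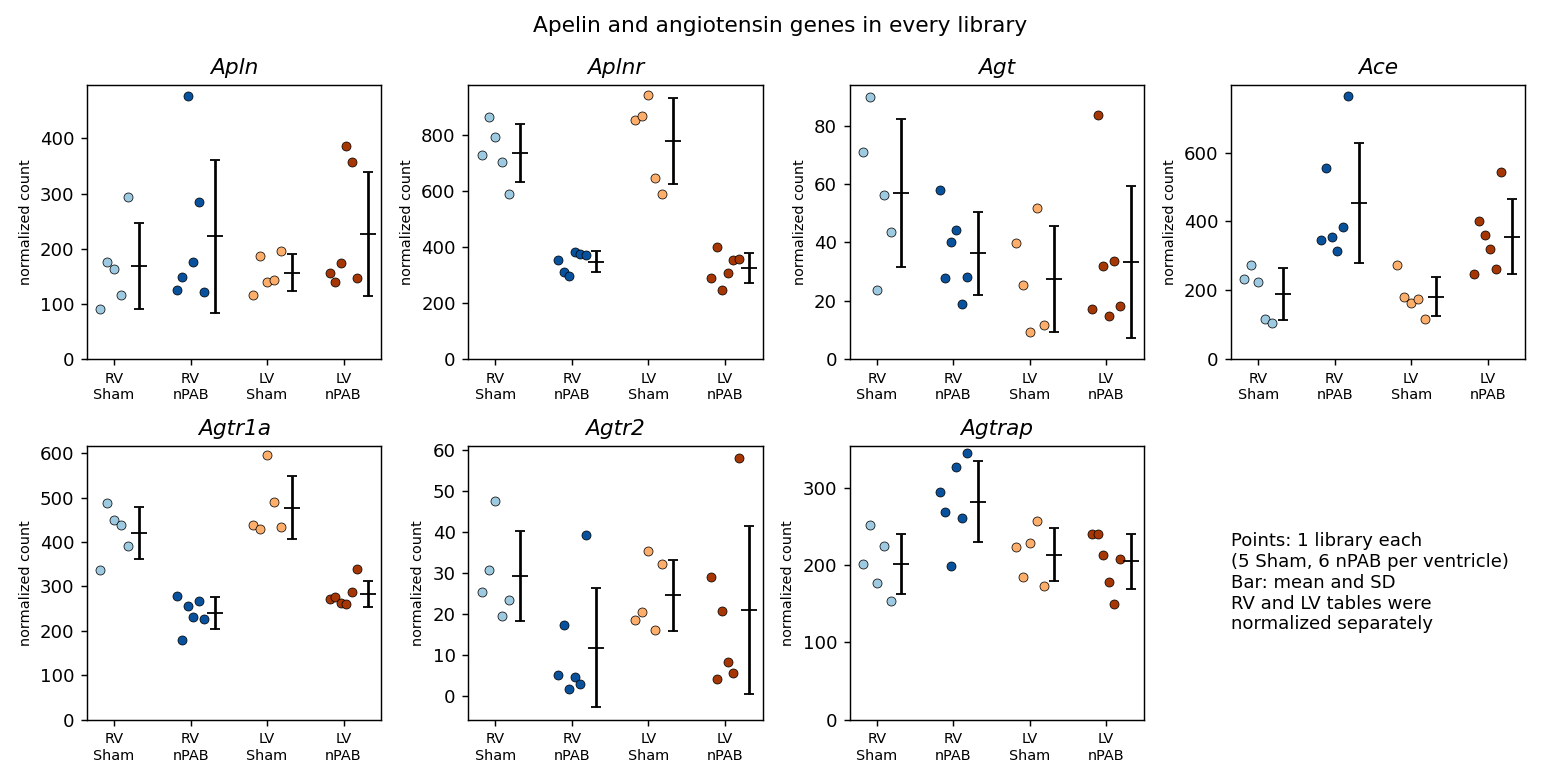
Normalized counts of the 7 genes by library (y axis, each panel with its own scale), with points for the 22 libraries and bars for the mean and SD of 5 Sham or 6 nPAB libraries per ventricle. Aplnr and Agtr1a of every nPAB library lie below every Sham library of the same ventricle, and Ace of every RV nPAB library lies above every RV Sham library.

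Aplnr (ENSMUSG00000044338, chr2:85136225-85139923, plus strand) had the smallest adjusted p of the 7 in each ventricle. In the RV Sham libraries it stood at 727, 864, 791, 701 and 588 normalized counts, and in RV nPAB between 297 and 382 with a median of 361. All 6 nPAB libraries were lower than all 5 Sham libraries. The ratio of the means was 0.473 and the log2 fold change was -1.07 ± 0.11 (SE), with an adjusted p of 3.49e-06. Of the genes tested in the RV, 12.9% had groups that did not overlap.

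The apelin receptor was also low in the LV, which was not banded. LV Sham libraries held 852, 865, 942, 647 and 587 normalized counts of Aplnr, against 247 to 399 with a median of 328 in LV nPAB. The groups again did not overlap, as for 6.53% of the genes tested in the LV, and the ratio of the means was 0.417. The log2 fold change was -1.25 ± 0.14 (SE), with an adjusted p of 3.70e-05. Sham mice 12 and 13, female by Xist and Ddx3y, held the LV Sham values of 647 and 587. Female LV nPAB libraries held 247 to 305 and male ones 352 to 399. With a sex term the LV log2 fold change was -1.21 ± 0.09, with an adjusted p of 1.26e-06. In bulk tissue, fewer cells of a type and less RNA per cell cannot be told apart.

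Endothelial cells are the main site of Aplnr in the heart, so 12 endothelial markers were set beside it. Of these 12 markers, 4 were higher and 1 lower in RV nPAB, and 2 were higher and 1 lower in LV nPAB. Their sum was 34256 to 39167 normalized counts in RV Sham and 33654 to 44954 in RV nPAB, and 35108 to 40173 in LV Sham and 33751 to 52103 in LV nPAB, with none of the markers at 0 in all libraries of a group. Aplnr made up a median of 1.95% of that sum in RV Sham (1.72 to 2.24%) and 0.854% in RV nPAB (0.780 to 1.11%). In the LV the median was 2.12% in Sham (1.66 to 2.58%) and 0.773% in nPAB (0.675 to 1.17%). Relative to the summed endothelial markers, Aplnr was therefore lower in every nPAB library than in any Sham library of its ventricle. Cd36, the largest part of that sum, averaged 17880 normalized counts in RV Sham, 16787 in RV nPAB, 18370 in LV Sham and 17438 in LV nPAB. The sum and the shares thus depend to a large part on this 1 marker, and shares without it were not computed. Tek, the angiopoietin receptor, was the marker that fell in both ventricles, with a log2 fold change of -0.68 ± 0.17 (SE) and an adjusted p of 0.0116 in the RV. The part of endothelial cells in the Aplnr result was not tested.

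Apln (ENSMUSG00000037010, chrX:48025146-48034853, minus strand) was not called in either ventricle. RV Sham libraries held 91.3, 176, 163, 117 and 293 normalized counts, and RV nPAB libraries 122 to 477 with a median of 162. The LV Sham libraries held 117, 187, 140, 144 and 196, and the LV nPAB libraries 139 to 386 with a median of 165. Only 1 of 6 nPAB libraries in the RV and 2 of 6 in the LV lay above all Sham libraries. The log2 fold changes were 0.33 ± 0.39 (SE) in the RV, with an adjusted p of 0.615, and 0.42 ± 0.27 in the LV, with an adjusted p of 0.374. Single mice moved these values: the RV value was 0.069 without nPAB mouse 7, 0.14 without Sham mouse 9, 0.22 without either nPAB mouse 10 or Sham mouse 12 and 0.56 without Sham mouse 13. The LV value was 0.24 without nPAB mouse 8 and 0.26 without nPAB mouse 10. The values were 0.10 in the RV and 0.62 in the LV without mice 6 and 7, and none of these was called.

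The level of the ligand was also set against that of its receptor within each library. Per kilobase of exon, Apln stood at a median of 0.240 of Aplnr in RV Sham (0.147 to 0.586) and 0.554 in RV nPAB (0.388 to 1.89), and these ranges overlap. In the LV the ratio was 0.254 in Sham (0.161 to 0.392) and 0.731 in nPAB (0.410 to 1.49), with no overlap. The ratio contains the fall of Aplnr given above and is not a separate result. Apela, the second apelin-receptor ligand, averaged under 1 normalized count in each group.

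**Figure D2:**
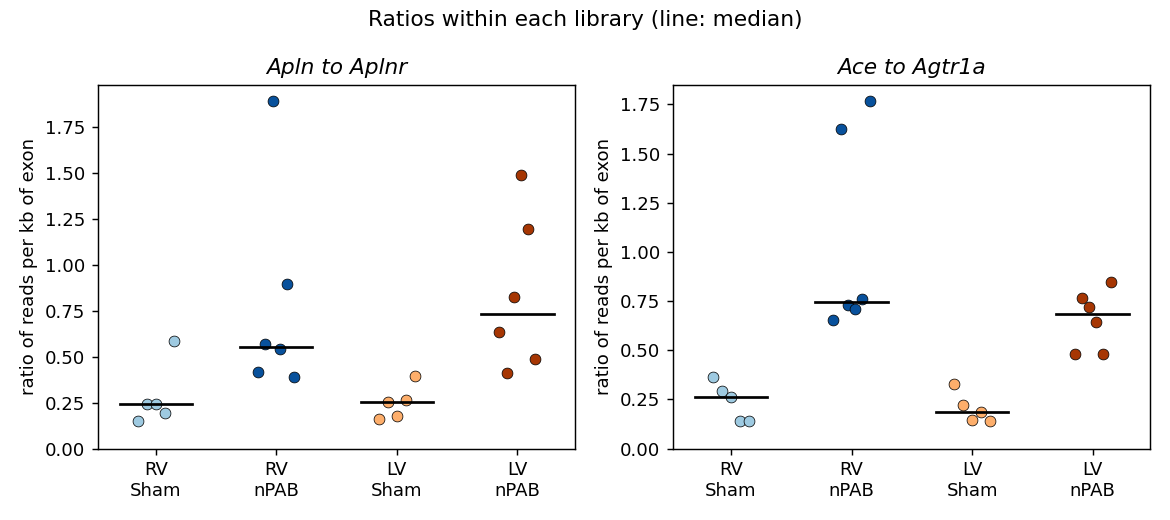
Ratio of reads per kilobase of exon of Apln to Aplnr (left) and of Ace to Agtr1a (right) in each library, with a line at the median of each of the 4 groups. The Ace to Agtr1a ratio is higher in every nPAB library than in any Sham library of the same ventricle. Its medians are 0.746 against 0.263 in the RV and 0.683 against 0.187 in the LV. In the RV this follows from the values of Ace and of Agtr1a, neither of which overlaps between the groups.

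Agt (ENSMUSG00000031980, chr8:124556534-124569706, minus strand), the source of angiotensin peptides and in the body mainly a liver product, was a low transcript here. RV Sham libraries held 71.2, 89.9, 23.8, 56.4 and 43.4 normalized counts, and RV nPAB libraries 19.0 to 58.0 with a median of 34.0. LV Sham libraries held 39.9, 25.4, 9.14, 51.6 and 11.8, and LV nPAB libraries 14.6 to 83.9 with a median of 25.0. The groups overlapped in each ventricle. The log2 fold changes were -0.60 ± 0.34 (SE) in the RV, with an adjusted p of 0.226, and 0.26 ± 0.49 in the LV, with an adjusted p of 0.789. The libraries held 9 to 101 reads of Agt, so counting error is large. Hepatocyte markers summed to at most 78.5 normalized counts in a library.

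Ace (ENSMUSG00000020681, chr11:105967945-105989964, plus strand) was higher after banding in both ventricles. RV Sham libraries held 232, 273, 225, 116 and 104 normalized counts, and RV nPAB libraries 314 to 764 with a median of 370. All 6 nPAB libraries were above all 5 Sham libraries, and the ratio of the means was 2.39. The log2 fold change was 1.28 ± 0.30 (SE), with an adjusted p of 0.0108, and 1.25 ± 0.37 with 0.0394 without mice 6 and 7. Sham mice 12 and 13, female by Xist and Ddx3y, held the RV Sham values of 116 and 104. Female RV nPAB libraries held 314 to 556 and male ones 356 to 764. With a sex term the RV log2 fold change was 1.34 ± 0.23, with an adjusted p of 0.00126.

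The LV showed the same direction with partial overlap. Ace stood at 274, 181, 163, 174 and 116 normalized counts in LV Sham, and at 247 to 544 with a median of 340 in LV nPAB. Of the 6 nPAB libraries, 4 lay above all Sham libraries, Sham mouse 9 being the highest Sham library. The ratio of the means was 1.96 and the log2 fold change 0.97 ± 0.22 (SE), with an adjusted p of 0.0112. Without nPAB mice 6 and 7 it was 0.89 ± 0.25 and the call was lost, with an adjusted p of 0.0617.

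ACE is a surface enzyme of endothelium. Ace made up a median of 0.619% of the summed endothelial markers in RV Sham (0.296 to 0.707%) and 1.04% in RV nPAB (0.799 to 1.70%). In the LV this share was 0.448% in Sham (0.331 to 0.681%) and 0.893% in nPAB (0.666 to 1.18%). These shares too depend to a large part on Cd36. Lung epithelial markers were checked because lung is rich in ACE. They summed to 0 to 8.22 normalized counts (median 2.92) in RV Sham and 6.48 to 18.0 (10.7) in RV nPAB. In the LV they summed to 0 to 14.0 (9.135) in Sham and 1.00 to 19.0 (7.01) in nPAB. Cldn18 was at 0 in every library. The part of lung tissue in the Ace result was not tested. An antisense gene overlaps Ace in the annotation (Gm11651), and its reads are not given here.

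Agtr1a (ENSMUSG00000049115, chr13:30336441-30382867, plus strand), the main AT1 receptor gene of the mouse heart, was lower in both ventricles. RV Sham libraries held 337, 488, 449, 438 and 392 normalized counts, and RV nPAB libraries 180 to 278 with a median of 244. LV Sham libraries held 439, 429, 596, 491 and 433, and LV nPAB libraries 261 to 339 with a median of 273. Neither pair of groups overlapped. The ratios of the means were 0.571 in the RV and 0.592 in the LV.

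The log2 fold change of Agtr1a was -0.81 ± 0.13 (SE) in the RV, with an adjusted p of 2.16e-04, and -0.75 ± 0.11 in the LV, with an adjusted p of 4.13e-04. Its close copy Agtr1b averaged 2.62 normalized counts in RV Sham, 1.03 in RV nPAB, 0 in LV Sham and 2.55 in LV nPAB, and how the authors' counting divided reads between the copies is not known. Another annotated gene, Gm48161, overlaps Agtr1a on the same strand and was not analysed here. The AT1 receptor transcripts were thus nearly all assigned to Agtr1a. Ace relative to Agtr1a, per kilobase of exon, had medians of 0.263 (0.139 to 0.362) in RV Sham and 0.746 (0.654 to 1.77) in RV nPAB. The corresponding medians in the LV were 0.187 (0.142 to 0.328) in Sham and 0.683 (0.480 to 0.847) in nPAB. This ratio restates the rise of Ace and the fall of Agtr1a and is not a separate result.

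Agtr1a is expressed in cardiac pericytes and fibroblasts, so markers of both were summed. The 7 pericyte markers summed to 11691 to 13883 normalized counts in RV Sham and 7347 to 10814 in RV nPAB. In the LV they summed to 11508 to 13197 in Sham and 7753 to 10834 in nPAB. Neither pair of sums overlapped, and no marker was at 0 in all libraries of a group. Within the list, 2 rose and 2 fell in the RV, and 2 rose and 1 fell in the LV. Abcc9, an ATP-sensitive potassium channel subunit of pericytes and cardiomyocytes, fell in both ventricles. Its log2 falls were 0.84 ± 0.11 (SE) in the RV and 0.53 ± 0.11 in the LV, with adjusted p-values of 2.70e-05 and 0.00496. Vtn was the other marker that fell in the RV, with a log2 fold change of -1.51 ± 0.34 and an adjusted p of 0.00449. In the LV, Vtn was at -0.83 ± 0.31, with an adjusted p of 0.0965. Cspg4 (0.74 ± 0.13) and Higd1b (0.57 ± 0.16) were the 2 that rose in the RV. Agtr1a made up a median of 3.15% of the pericyte sum in RV Sham (2.47 to 3.84%) and 2.80% in RV nPAB (2.27 to 3.26%), and 3.70% (3.32 to 5.18%) and 3.04% (2.58 to 3.56%) in the LV, so these shares overlapped. Abcc9 alone made up a median of 84.4% of the pericyte sum in RV Sham, 74.6% in RV nPAB, 83.8% in LV Sham and 76.6% in LV nPAB. Without Abcc9, a choice made after seeing the data, the other markers summed to 1930 to 2239 in RV Sham and 1847 to 2578 in RV nPAB, and to 1827 to 2335 and 2027 to 2321 in the LV, with overlap in each ventricle. Relative to that sum, Agtr1a stood at a median of 21.8% in RV Sham (15.8 to 23.3%) and 11.0% in RV nPAB (6.99 to 14.5%), and at 22.1% (18.8 to 32.6%) and 13.1% (11.7 to 14.6%) in the LV, without overlap. Fibroblast markers summed to 36789 to 47835 in RV Sham and 26560 to 40442 in RV nPAB, with 2 of 8 lower, and in the LV to 30653 to 35254 and 26626 to 40970. The part of these cells in the Agtr1a result was not tested.

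Agtr2 (ENSMUSG00000068122, chrX:21484544-21489164, plus strand) was the scarcest of the 7. RV Sham libraries held 25.5, 30.7, 47.6, 19.5 and 23.5 normalized counts, and RV nPAB libraries 1.86 to 39.3 with a median of 4.86. Of the 6 nPAB libraries, 5 were below all Sham libraries, and nPAB mouse 11 held the remaining high value. The log2 fold change was -1.83 ± 0.58 (SE), with an adjusted p of 0.0296, and -1.34 with edgeR and -1.33 with DESeq2. RV nPAB libraries held 2 to 35 reads of the gene and RV Sham libraries 20 to 60, which limits the precision. The call was lost without any 1 of nPAB mice 5, 7, 8 and 10 and Sham mice 9, 10 and 11, at adjusted p-values of 0.0510 to 0.0789, and without trend and robust options (0.0600), with edgeR (0.126) and with DESeq2 (0.0986).

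In the LV the AT2 receptor gene spread widely. LV Sham libraries held 18.5, 20.5, 35.5, 16.1 and 32.3 normalized counts of Agtr2, and LV nPAB libraries 4.15 to 58.0 with a median of 14.6. Of the nPAB libraries, 3 lay below and 1 above all Sham libraries. The log2 fold change was -0.68 ± 0.55 (SE), with an adjusted p of 0.480. It was -0.37 without nPAB mouse 6, -0.44 without nPAB mouse 10, -1.07 without nPAB mouse 11 and -0.41 without mice 6 and 7, and -0.26 with edgeR and -0.24 with DESeq2, all uncalled. Mouse 11 held the highest nPAB value of Agtr2 in each ventricle.

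Agtrap (ENSMUSG00000029007, chr4:148077061-148088031, minus strand), the AT1 receptor-associated protein, was higher in the banded RV. RV Sham libraries held 202, 251, 176, 225 and 154 normalized counts, and RV nPAB libraries 198 to 344 with a median of 281. Of the nPAB libraries, 5 lay above all Sham libraries, and mouse 7 did not. The log2 fold change was 0.48 ± 0.15 (SE), with an adjusted p of 0.0320. That call was lost without any 1 of nPAB mice 5, 8 and 11 and Sham mice 9, 11 and 13, at adjusted p-values of 0.0527 to 0.0942, under scaling by total reads (0.0709), without trend and robust options (0.0657) and with no filter (0.0524).

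LV values of Agtrap lay close together. LV Sham libraries held 223, 185, 228, 257 and 173 normalized counts, and LV nPAB libraries 150 to 240 with a median of 211. The groups overlapped, and the log2 fold change was -0.06 ± 0.15 (SE), with an adjusted p of 0.841. The summed ventricular cardiomyocyte markers overlapped between RV Sham (754550 to 859710) and RV nPAB (718210 to 867090).

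**Figure D3:**
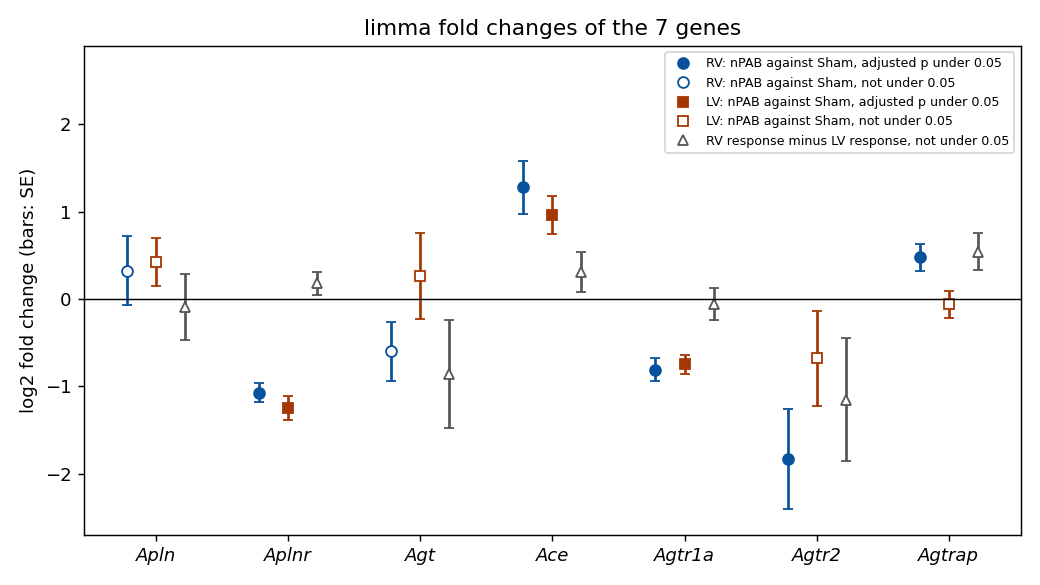
Log2 fold changes of the 7 genes (y axis) with standard errors, for nPAB against Sham in the RV (circles) and LV (squares) and for the RV response minus the LV response (triangles). Filled symbols have an adjusted p under 0.05. Aplnr, Agtr1a and Ace are filled in both ventricles, Agtr2 and Agtrap in the RV, and no triangle is filled.

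Whether banding acted differently on the ventricles was tested on the log2 RV minus log2 LV value of each mouse. None of the 7 genes was called, and 0.00748% of all genes tested were. The smallest adjusted p among them was 0.400 with limma, 0.235 with edgeR and 0.188 with DESeq2, and 1 of the 7 had an unadjusted p under 0.05 with each tool. For limma that gene was Agtrap, at a difference of 0.54 ± 0.22 (SE), an unadjusted p of 0.0282 and an adjusted p of 0.400. The difference for Agtr2 was -1.15 ± 0.70, with an adjusted p of 0.588. For Aplnr it was 0.18 ± 0.13, with an adjusted p of 0.670, for Ace 0.31 ± 0.23 (0.667) and for Agtr1a -0.06 ± 0.18 (0.936). A call of Agtr2 and Agtrap in the RV alone is therefore not a shown difference between ventricles. Without mice 6 and 7 the Agtrap difference was 0.76 ± 0.21, with an adjusted p of 0.167, and the Agtr2 difference was -1.34 ± 0.40, with an adjusted p of 0.194. With the LV libraries of these 2 mice exchanged, the Agtr2 difference was -1.15 ± 0.37, with an adjusted p of 0.344. The Agtrap difference was then 0.54 ± 0.23, with an adjusted p of 0.465.

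**Figure D4:**
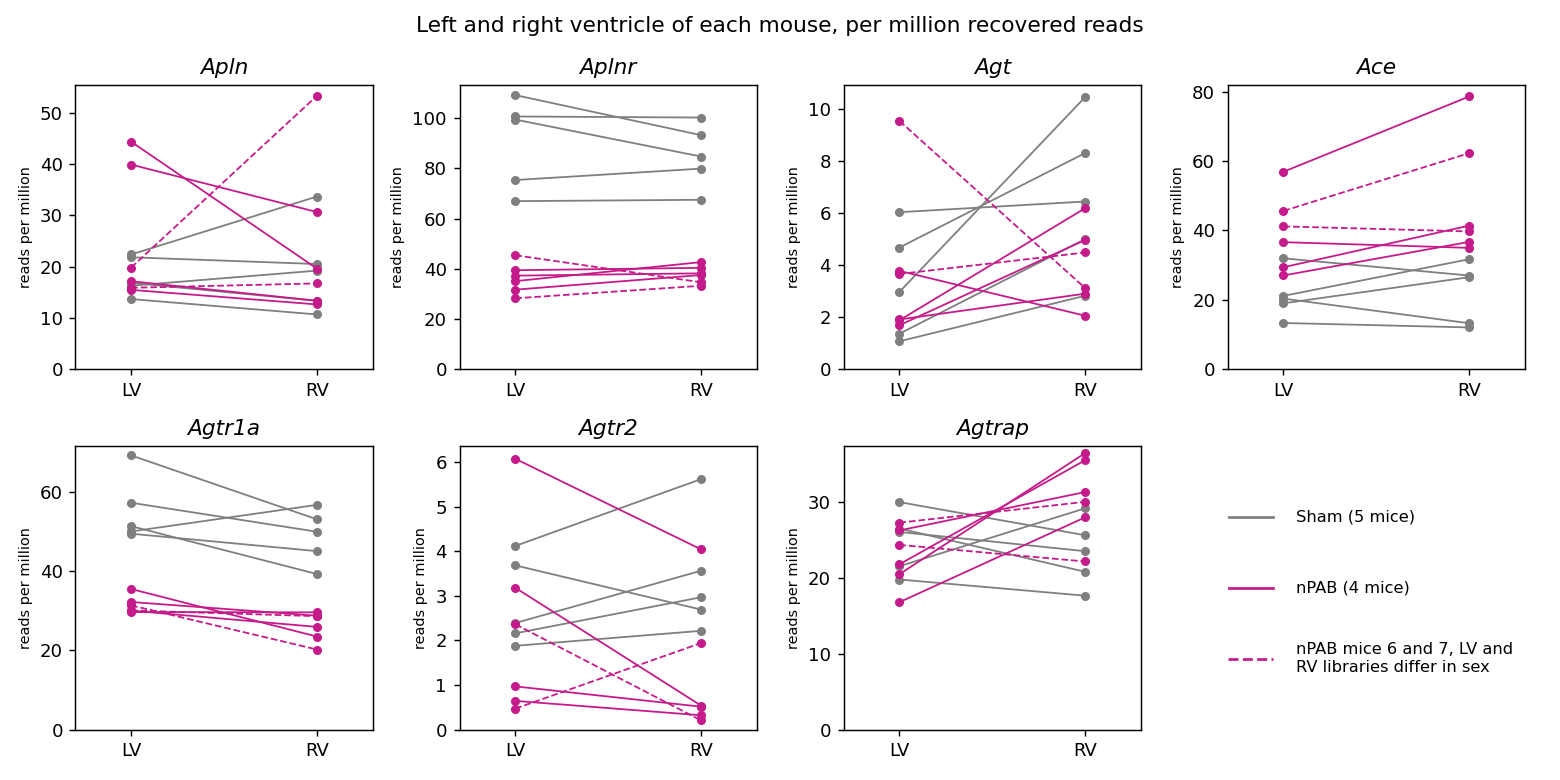
Reads per M recovered reads of the 7 genes in the LV and RV library of each mouse, joined by a line (grey Sham, pink nPAB, dashed nPAB mice 6 and 7, whose libraries differ in sex). Agt is higher in the RV in all 5 Sham mice, and Agtr1a is lower in the RV in all 6 labelled nPAB pairs.

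Levels in the RV and LV of a mouse were set side by side per M recovered reads, since the tables were normalized separately, and are given as a description. Agt was higher in the RV than in the LV in 5 of 5 Sham mice, with a median log2 ratio of 1.41 (0.10 to 1.88), and in 4 of 6 nPAB mice, with a median of 0.45 (-1.62 to 1.73). Agtrap was higher in the RV in 1 of 5 Sham mice and 5 of 6 nPAB mice, with median log2 ratios of -0.16 and 0.48. Agtr2 was higher in the RV in 4 of 5 Sham mice and 1 of 6 nPAB mice, with medians of 0.45 and -0.96. Agtr1a was lower in the RV in 4 of 5 Sham and 6 of 6 nPAB mice, with medians of -0.20 and -0.19. Aplnr lay close to equal, with medians of -0.01 in Sham and 0.14 in nPAB. Leaving out mice 6 and 7, whose libraries are not from 1 animal, left 4 nPAB mice. Among these, Agt was higher in the RV in 3 (median log2 ratio 1.08), Agtrap in 4 (0.72), Agtr2 in 0 (-0.96), Agtr1a in 0 (-0.19) and Aplnr in 4 (0.14).

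The order of the 7 transcripts by mean level differed between groups. Per kilobase of exon per M reads, Aplnr led in RV Sham at 23.0 ± 3.41 (SD, n = 5), ahead of Agtr1a at 17.5 ± 2.45, Apln at 6.18 ± 2.84, Agtrap at 5.51 ± 1.04, Ace at 4.17 ± 1.68, Agt at 3.48 ± 1.55 and Agtr2 at 1.03 ± 0.40. Agtr1a and Apln do not overlap there, and all other neighbours in this order do. In RV nPAB, Aplnr at 10.2 ± 0.95 (SD, n = 6), Agtr1a at 9.36 ± 1.31, Ace at 9.26 ± 3.33, Apln at 7.74 ± 4.96 and Agtrap at 7.21 ± 1.24 overlapped from each to the next. Agt at 2.08 ± 0.81 lay below Agtrap without overlap, and Agtr2 was at 0.38 ± 0.45. LV Sham had Aplnr at 24.4 ± 4.91 (SD, n = 5) and Agtr1a at 19.9 ± 2.97 above Agtrap at 5.84 ± 0.97, Apln at 5.77 ± 1.20, Ace at 3.99 ± 1.28, Agt at 1.70 ± 1.13 and Agtr2 at 0.86 ± 0.30, and only Agtr1a and Agtrap, among neighbours, did not overlap. LV nPAB had Agtr1a at 11.3 ± 0.78 (SD, n = 6), Aplnr at 9.77 ± 1.63, Apln at 8.07 ± 4.17, Ace at 7.46 ± 2.09, Agtrap at 5.38 ± 0.92, Agt at 1.97 ± 1.58 and Agtr2 at 0.69 ± 0.64, and all neighbours overlapped.

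Genes of angiotensin peptide production and removal, most of them enzymes, were also examined, as a list of 21 genes. Of these, 17 passed the filter in the RV, where 4 rose and 3 fell, and the median log2 fold change was 0.27, against 5.16e-05 for all genes tested. Of 18 in the LV, 2 rose and 1 fell, at a median of 0.14 against -0.01. The share called over all genes tested was 22% in the RV and 9.31% in the LV. Without mice 6 and 7, 5 rose and 3 fell of 18 in the RV, and 1 rose of 17 in the LV. Renin (Ren1) was at 0 in every library.

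Ctsa, the lysosomal carboxypeptidase cathepsin A, which can trim angiotensin I, led the rises. It averaged 484 ± 37.5 (SD, n = 5) normalized counts in RV Sham and 924 ± 191 (n = 6) in RV nPAB, a log2 fold change of 0.91 ± 0.12 (SE), and rose in the LV by 0.40 ± 0.09 with an adjusted p of 0.0109. Nln (neurolysin) rose in the RV by 0.44 ± 0.10 (adjusted p 0.00267) and Ctsd (cathepsin D, an aspartyl protease) by 0.36 ± 0.10 (0.0130). Anpep, the aminopeptidase N that degrades angiotensin III, fell in both ventricles, by 0.65 ± 0.15 on the log2 scale in the RV and by 0.46 ± 0.13 in the LV, with adjusted p-values of 0.00345 and 0.0331. Rnpep, aminopeptidase B, fell in the RV by 0.95 ± 0.23, with an adjusted p of 0.00603. Furin, a proprotein convertase, rose in the LV by 0.41 ± 0.11, with an adjusted p of 0.0226. The LV calls of Ctsa, Anpep and Furin were lost without mice 6 and 7, at adjusted p-values of 0.0679, 0.0952 and 0.119. Dpp3 (higher) and Lnpep (lower) make up the rest of the RV calls and are named here after their values were seen.

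The list of signalling proteins close to these receptors held 32 genes, all tested in both ventricles. In the RV 3 rose and 4 fell, with a median log2 fold change of 0.01, and in the LV 1 rose, with a median of -0.01. The share called was close to the 22% of all genes in the RV and below the 9.31% of all genes in the LV. Without mice 6 and 7, 3 rose and 2 fell in the RV and 1 rose in the LV. Itpr1, the IP3 receptor that releases calcium downstream of Gq, fell in the RV by 0.50 ± 0.11 on the log2 scale, with an adjusted p of 0.00343. Rgs2, which shortens Gq signalling, averaged 895 ± 181 (SD, n = 5) normalized counts in RV Sham and 569 ± 149 (n = 6) in RV nPAB, with an adjusted p of 0.00961. In the LV its means were 688 and 829, with an adjusted p of 0.664, and the difference between ventricles was -0.87 with an adjusted p of 0.229. Gnai1, a Gi subunit, rose in both ventricles, by 0.31 ± 0.11 in the RV and 0.51 ± 0.12 in the LV, with adjusted p-values of 0.0461 and 0.0122. Gnai2 rose in the RV by 0.25 ± 0.06, with an adjusted p of 0.00999. Grk3, a receptor kinase, fell in the RV by 0.50 ± 0.16 (0.0312). Itpr2, another IP3 receptor, fell by 0.32 ± 0.11 (0.0362). Prkcd, a protein kinase C named here after its values were seen, is the remaining rise of the RV. Grk3 and Itpr2 lost their calls without mice 6 and 7 (adjusted p 0.0720 and 0.0766).

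The aldosterone branch lies downstream of angiotensin II in the adrenal gland, and its receptor is present in heart. Of its 9 genes, only Nr3c2, the mineralocorticoid receptor, passed the filter in the RV, and Nr3c2 and Hsd11b2 in the LV. Nr3c2 averaged 134 ± 10.7 (SD, n = 5) normalized counts in RV Sham and 64.0 ± 26.4 (n = 6) in RV nPAB, a log2 fold change of -1.17 ± 0.26 (SE) with an adjusted p of 0.00349. In the LV it fell by 0.78 ± 0.23, with an adjusted p of 0.0376, and this call was lost without mice 6 and 7, at an adjusted p of 0.164. Cyp11b1, Cyp11b2 and Cyp21a1, the steroid synthesis genes of the list, were at 0 in every library. None of the 8 other receptors and peptides of these systems, among them Mas1, Apela and the kinin receptors, passed the filter in either ventricle.

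Apelin marks endothelial tip cells, the leading cells of growing vessels, so their markers were listed too. Of 12, 5 rose and 1 fell in the RV, with a median log2 fold change of 0.53. In the LV 3 rose and 1 fell, with a median of 0.37. For all genes tested, the medians were 5.16e-05 (RV) and -0.01 (LV), and the shares with a call were 22% and 9.31%. Esm1, Dll4, Angpt2, Pgf, Pdgfb and Adm, named here after their values were seen, did not pass the test in either ventricle. Their log2 fold changes, in that order, were 0.60, -0.02, -0.28, 1.64, 0.34 and -0.12 in the RV. The LV values were 0.53, -0.40, -0.07, 1.00, -0.01 and 0.74. Col4a1, a basement membrane collagen, averaged 8025 normalized counts in RV Sham and 12299 in RV nPAB, and rose by 0.62 ± 0.08 (SE) in the RV and 0.41 ± 0.08 in the LV. Its partner Col4a2 rose by 0.56 ± 0.08 and 0.46 ± 0.08, and Nid2, nidogen 2, by 0.66 ± 0.11 and 0.32 ± 0.08. Kcne3, a potassium channel subunit, rose in the RV by 1.81 ± 0.38, with an adjusted p of 0.00209, and Unc5b, a netrin receptor, by 0.49 ± 0.16, with an adjusted p of 0.0396. Cxcr4, the CXCL12 receptor, fell in both ventricles, by 0.60 ± 0.21 in the RV and 1.10 ± 0.19 in the LV, with adjusted p-values of 0.0454 and 0.00125. Without mice 6 and 7 the counts were the same, 5 and 1 in the RV and 3 and 1 in the LV. With edgeR, Cxcr4 was not called in the RV. Basement membrane collagens are made by several cell types, and which of them these changes came from was not tested.

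Some calls in these lists hung on single mice or on a setting, and the largest adjusted p over the alternatives is given for each. In the RV, Grk3 was lost without nPAB mouse 5, 6 or 10 or Sham mouse 9, 12 or 13 (0.0923), and Itpr2 without nPAB mouse 5, 7 or 10 or Sham mouse 9, 10 or 13 (0.0930). Gnai1 was lost there without nPAB mouse 5, 8 or 11 or any 1 Sham mouse (0.142), and Prkcd without nPAB mouse 6, 8, 10 or 11 or Sham mouse 9, 10, 12 or 13 (0.125). Cxcr4 was lost without nPAB mouse 5, 6, 10 or 11 or Sham mouse 9, 10, 11 or 13 (0.118), and Unc5b without nPAB mouse 5, 6, 8, 10 or 11 or Sham mouse 10, 11, 12 or 13 (0.0909). Dpp3 was lost without Sham mouse 11 or 12 (0.0639) and Lnpep without Sham mouse 12 (0.0529). In the LV, Nr3c2 was lost without nPAB mouse 5, 6, 7 or 8 or Sham mouse 9, 10, 11 or 13 (0.164), and Anpep without nPAB mouse 5, 6 or 8 or Sham mouse 9, 10 or 11 (0.0952). Furin was lost without nPAB mouse 7 or Sham mouse 10 or 12 (0.119), and Nid2 without Sham mouse 11 or 12 (0.0627). By setting, Gnai2 (0.0878), Gnai1, Prkcd, Unc5b and Dpp3 were lost in the RV under scaling by total reads. Ctsd (0.0569), Lnpep, Grk3, Itpr2, Gnai1, Prkcd, Cxcr4 and Unc5b were lost there without trend and robust options. RV calls of Itpr2, Gnai1, Prkcd and Cxcr4 were lost with no filter, Gnai1 and Cxcr4 with a sex term, and Prkcd and Cxcr4 with edgeR. LV calls of Furin and Nid2 were lost under scaling by total reads. Without trend and robust options Nr3c2, Anpep, Furin and Nid2 were lost in the LV, and with no filter Nr3c2 and Anpep. The RV calls of Ctsa, Nln, Anpep, Rnpep, Itpr1, Rgs2, Nr3c2, Col4a1, Col4a2, Nid2 and Kcne3 were kept under every alternative other than the block.

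**Figure D5:**
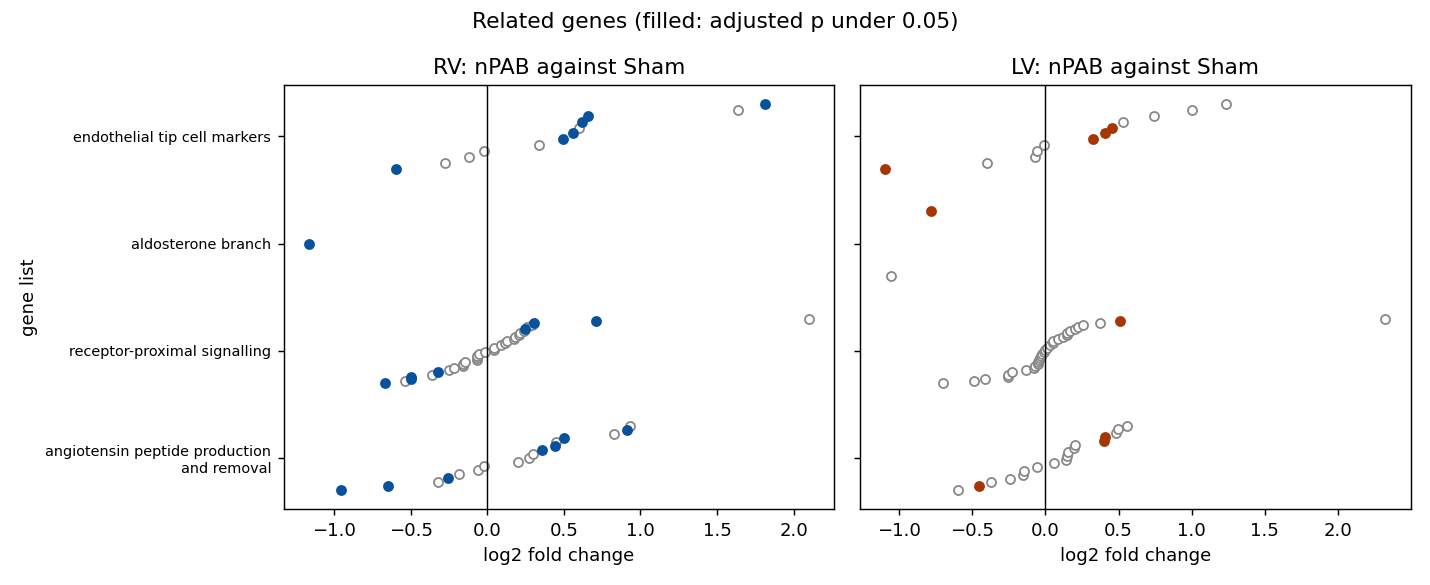
Log2 fold changes (x axis) of each tested gene of 4 related lists (y axis, genes of a list spread vertically in order of their value) in the RV (left) and LV (right), with filled points for an adjusted p under 0.05. The RV panel holds 21 filled points and the LV panel 9.

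The genes whose levels followed each member most closely over the 11 libraries of each table were read from 10235 genes, as a description. Libraries share depth, group and scaling, so no p is given. Aplnr was followed by Slitrk6 (r = 0.96 in the RV and 0.93 in the LV), Arfgef1 (0.94 and 0.94) and Zeb2 (0.92 and 0.96). Within groups, after group means were removed, the values were 0.61 and 0.59 for Slitrk6, 0.41 and 0.64 for Arfgef1 and -0.26 and 0.70 for Zeb2. Agtr1a was followed by Klhl24 (0.95 and 0.93), Fgf9 (0.98 and 0.88) and Sox4 (0.94 and 0.91). Within groups these were 0.68 and 0.53 for Klhl24, 0.88 and 0.34 for Fgf9 and 0.68 and 0.39 for Sox4. Ace was followed by Glul (0.90 and 0.95), Mgp (0.95 and 0.88) and Wwtr1 (0.88 and 0.90), and these stayed at 0.69 to 0.87 within groups.

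For Agtr2 the closest genes were Irx3 (0.84 in the RV and 0.87 in the LV, and 0.71 and 0.86 within groups), Cd59a (0.71 and 0.93, and 0.34 and 0.93 within groups) and Gramd1b. For Agtrap they were Fabp3, the cardiac fatty acid binding protein (0.81 and 0.71, and 0.61 and 0.72 within groups), Slc25a39 and the pseudogene Fabp3-ps1, whose reads cannot be separated with certainty from those of Fabp3. Apln was followed by Alpl (0.83 and 0.61), Actb and Rbmx, and Agt by Eps8 (0.91 and 0.51), Alg2 and Mfap3l. Within groups the values were 0.85 and 0.51 for Alpl and 0.89 and 0.49 for Eps8.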

How the data were processed

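Per the labels' protocols, a Qiagen kit (RNeasy Plus Mini) was used to extract RNA and a Revelo kit (RNA-Seq High Sensitivity) to prepare libraries. The submitters' processing notes list cutadapt, featureCounts, DESeq2 and mm10. Neither an aligner nor any version is given in the sources used here. Per the labels, the authors deposited DESeq2-normalized counts, a non-negative signal in which each gene's count is divided by its library's size factor, in 1 table for each ventricle. All values were whole multiples of 1 read within 0.001, so whole reads were recovered (7.11 to 11.3 M per library) for depth-scaled levels and for edgeR and DESeq2 as alternatives. The labels are silent on strand in counting.

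The main test was limma 3.58.1 in R 4.3.3 (lmFit, eBayes with trend and robust) on log2(deposited value + 1). Genes averaging 10 or more were tested, two-sided, and p-values were adjusted by Benjamini-Hochberg over all of them (13660 in the RV, 13528 in the LV, 13364 for the difference within a mouse) and a threshold of 0.05. On this scale the pseudocount shrinks differences between low values. The p-values measure the spread between these mice. Symbols and coordinates came from GENCODE vM21 (49411 RV and 49412 LV genes with a symbol). The members, gene lists and tests were chosen with earlier results of these data known. Named are the 7 members, of each pathway list up to 5 genes with the smallest p in the RV and 3 in the LV, and for each member the 3 genes with the highest mean correlation, over genes averaging 50 or more that have no provisional symbol.

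Title numbers pair the RV and LV libraries of a mouse. The correlation of their deviations from group means was 0.0559 for nPAB mouse 7, 0.171 for nPAB mouse 6 and 0.133 to 0.384 for the other mice. Crossing nPAB mice 6 and 7 pairs libraries of like sex. It gave 0.180 for RV 6 with LV 7 and -0.0444 for RV 7 with LV 6. Every 2 libraries of a group differed by more than sampling noise (chi-square of at least 7.07 per degree of freedom). The scripts were tested on simulated data. The alternatives varied mice, tool, block, sex term, weights, variance model, scaling, filter and pseudocount. Also used were DESeq2 1.42.0, edgeR 4.0.16 and, for plots, matplotlib 3.10.9. Some genes of the lists are not reported here by name.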

Additional observations from a re-analysis of the deposited data

Results flagged for a closer look

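In 2 of the 28 groups of member values examined, 1 library stood apart from the rest by Dixon's criterion, which chance alone flags in about 1 group in 20 (1.4 groups here). Agt in LV nPAB mouse 6 was at 83.9 normalized counts, with the next library at 33.6, and the gap was 0.725 of the group's range. Agtr1a in LV nPAB mouse 11 was at 339 normalized counts, with the next at 287, and the gap was 0.662 of the range. Agtr1a in that library was still below all 5 LV Sham libraries. Mouse 6 is 1 of the 2 mice whose RV and LV libraries differ in sex.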

How the results depend on the processing

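Aplnr was called in both ventricles under all 24 alternatives run in each. Agtr1a in both ventricles and Ace in the RV were lost only with the title number as a block, and Ace in the LV with that block and without nPAB mice 6 and 7. With the replicate block, RV calls fell from 2999 to 262 genes and from 5 to 1 member, and LV calls from 1260 to 29 genes and from 3 to 1 member. The labels share only numbers 10 and 11 between nPAB and Sham, which are different mice, and their deviations correlated at -0.08 to -0.03, so these numbers do not pair them. Without trend and robust options 3 members were called in the RV and 739 genes in the LV. Without mice 6 and 7, 668 genes were called in the LV. Leaving out 1 mouse gave 2399 to 3015 genes and 3 to 5 members in the RV, 841 to 1290 genes and 3 members in the LV, and 0 to 20 genes for the RV minus LV response, the highest being without nPAB mouse 7 (20) and nPAB mouse 6 (11). That response had 1 gene called in the main test, 0 with a pseudocount of 0.5, 35 with a filter at 50, 9 with array weights, 0 with a sex term, 137 with edgeR, 249 with DESeq2, 29 without mice 6 and 7, 0 with those mice crossed and 5 with no replicate block. No member was called in it under any of these. DESeq2 called 2 genes of the pathway lists there, against 0 in the main test.

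Signs turned only for uncalled values, mainly on leaving out 1 mouse. LV Agt ran from -0.053 (without nPAB mouse 6) to 0.55, with -0.043 without Sham mouse 11 and -0.19 without mice 6 and 7. LV Agtrap ran from -0.13 to 0.023 (without nPAB mouse 10), with 0.0083 without Sham mouse 12. The RV minus LV value of Apln ran from -0.40 to 0.12 (without nPAB mouse 8), with 0.049 without Sham mouse 13. That of Agtr1a ran from -0.12 to 0.031 (without Sham mouse 10), with 0.0044 without nPAB mouse 11 and 0.012 without nPAB mouse 6. The cause was not tested. Scaling by total reads gave 1089 genes higher and 2151 lower in the RV, against 1519 and 1480, and 468 and 903 in the LV, against 644 and 616. Depth limits Agt and Agtr2 most, with as few as 9 and 2 reads in a library, and with a filter at 50 neither was tested.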
